A study of Homo sapiens with 20 samples.

Results

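The nuclear genes of the mitochondrial respiratory chain were taken from GENCODE release 44 (GRCh38) by symbol: protein-coding genes starting with NDUFA, NDUFB, NDUFC, NDUFS, NDUFV, SDHA, SDHB, SDHC, SDHD, UQCR, ATP5, or COX followed by a digit. The rule gave 111 of 20033 protein-coding genes. They comprised 40 genes of complex I, 8 complex I assembly factors (NDUFAF), 4 genes of complex II, 4 complex II assembly factors (SDHAF), 9 of complex III, 17 of complex IV, 9 assembly and haem synthesis factors of complex IV (COX10 to COX20) and 20 of complex V. The 2 readthrough genes among them, ATP5MF-PTCD1 and NDUFC2-KCTD14, shared the summits of ATP5MF and NDUFC2. Chromatin immunoprecipitation with sequencing (ChIP-seq) was done in the prostate cancer cell line PC-3, with an antibody to the transcription factor c-Myc, here called MYC, or to RNA polymerase II, here called POL2. Wild-type (WT) cells were compared with the PSD10 line, in which SLK, a serine/threonine kinase gene, was knocked out (SLK-KO), and no other allele or treatment was named for either line. Each genotype had 3 MYC and 3 POL2 libraries, and these 12 of the 20 samples were analysed. Whether PSD10 is a single clone is not given in the sources used here, so clone and genotype cannot be told apart.

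The respiratory chain passes electrons from NADH (complex I) and succinate (complex II) through complex III to oxygen at complex IV, and complex V uses the resulting proton gradient to make ATP. Its subunits come from both the nuclear and the mitochondrial genome, and assembly factors join them with haem, copper and iron-sulphur cofactors. MYC is a transcription factor that binds the E-box CACGTG with its partner MAX and is known to act on many genes of mitochondrial biogenesis.

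The deposited lists held the positions of peak summits and a score each, and a gene was counted in a library when a summit lay within 1 kb of the transcription start site (TSS) of any of its transcripts. MYC lists held 365, 201 and 267 summits in WT replicates 1 to 3 and 1218, 1420 and 988 in SLK-KO. POL2 lists held 17126, 5047 and 9925 summits in WT and 19017, 15436 and 16298 in SLK-KO, so WT POL2 replicate 2 stood apart as the shortest. Read depth is unknown, so list length and genotype cannot be told apart in any count below, and a summit that is not listed does not show that the protein was absent. SLK itself had a POL2 summit in 2 WT and 3 SLK-KO libraries, which checks nothing about its coding sequence. POL2 was found at 7 of 7 epithelial and PC-3 markers in at least 1 library, CDH1 among them in 1 WT library alone. Each SLK-KO library had POL2 at 6 of these 7. It was found at 1 of 7 markers of other cell types (PECAM1, in 1 WT library).

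MYC summits were found near few respiratory chain genes, and near more of them in the longer SLK-KO lists. In WT, 3, 2 and 2 of the 111 genes had one (2.70, 1.80 and 1.80%), against 1.83, 1.04 and 1.39% of all coding genes. In SLK-KO, each of the 3 libraries had one at 10 genes (9.01%, Wilson 95% interval 4.97 to 15.8%, counting error only). All coding genes gave 5.49, 6.38 and 4.66%. The 10 genes differed in part between libraries, with 5 members in all 3, so the SD of 0 below reflects equal counts alone. The mean share was 2.10% ± 0.520 (SD, n = 3) in WT and 9.01% ± 0 (SD, n = 3) in SLK-KO, a difference of 6.91 percentage points, and the genotypes did not overlap. Over all coding genes the same shares were 1.42% ± 0.395 and 5.51% ± 0.861. Over the 10765 coding genes with a POL2 summit in at least 1 library they were 2.60% ± 0.717 and 10.1% ± 1.57, close to the respiratory chain values. When every list was reduced to its 201 best-scored summits, the length of the shortest, the numbers were 3, 2 and 1 genes in WT and 2, 1 and 2 in SLK-KO. At equal length the difference in mean share was therefore -0.300 percentage points, the opposite sign, but it rests on these few genes. All coding genes at that length gave 1.06, 1.04 and 1.08% in WT and 0.983, 1.01 and 1.02% in SLK-KO.

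**Figure D1:**
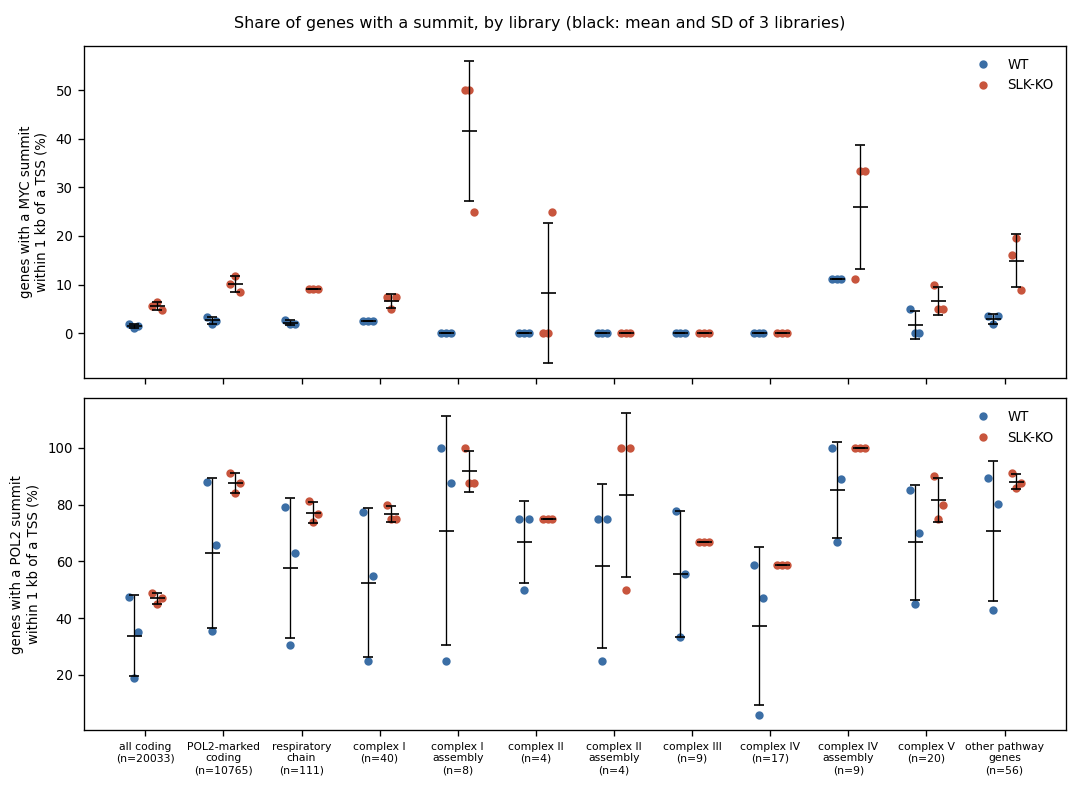
Percent of the genes of each complex with a MYC summit (upper panel) or POL2 summit (lower panel) within 1 kb of a TSS, by genotype, beside all coding genes, coding genes with POL2 and other pathway genes. Points are libraries, and black marks are the mean and SD over 3 libraries, which can pass 0 or 100%. Complex I assembly factors reached a mean of 41.7% for MYC in SLK-KO, and complexes III and IV were at 0 in every library.

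The counts of genes with MYC differed between the complexes. Among the assembly factors of complex I, 5 of 8 had a MYC summit in at least 1 of the 6 libraries, and 3 of the 9 assembly factors of complex IV did. Of the 5, NDUFAF2 and NDUFAF3 had MYC in 3 libraries, NDUFAF6 in 2, and NDUFAF5 and NDUFAF8 in 1 each. The NDUFAF3 summits lay nearer to a TSS of DALRD3. In the subunit groups, set by symbol, the counts were 4 of 40 for complex I, 1 of 4 for complex II and 0 of 9 for complex III. They were 0 of 17 for complex IV and 2 of 20 for complex V, and the complex II assembly factors had 0 of 4. The complex I group includes NDUFA4 and NDUFC2-KCTD14, and the complex V group the inhibitor gene ATP5IF1 and ATP5MF-PTCD1. In all, 15 of 111 genes (13.5%) had a MYC summit, against 9.66% of all coding genes. Among genes with a POL2 summit in at least 1 library, 16.3% of members and 17.7% of coding genes had MYC, so no excess was seen there. With 9 and 17 genes, the Wilson 95% upper bounds on a share of 0 in a library were 29.9% for complex III and 18.4% for complex IV, so these small complexes are described and were not tested against each other.

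A WT library held MYC at 3 members (2.70%, all coding genes 2.59%, coding genes with POL2 in at least 1 library 4.73%). Of these COX20 and NDUFV3 were listed in all 6 libraries. That pattern was met by 1.80% of members, 0.494% of all coding genes and 0.910% of coding genes with POL2 in at least 1 library. COX20, on chromosome 1 (244835616 to 244845057), encodes a chaperone of a mitochondrially encoded complex IV subunit. Its best summit ranked 186, 189 and 245 in WT and 50, 346 and 92 in SLK-KO, counted from the highest score at 1. In WT these ranks lay in the lower part of short lists, and in SLK-KO they lay nearer the top of long ones, but ranks from lists of different lengths show no change in binding. The COX20 summits spread over 586 bp, on both sides of the TSS.

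NDUFV3 encodes an accessory subunit of the NADH-oxidising module of complex I. Its MYC summits ranked 39, 146 and 83 in WT and 52, 44 and 170 in SLK-KO, and lay within 96 bp of each other on chromosome 21 (42879429 to 42879525). They lay 0 to 81 bp from the TSS of WDR4, which encodes the partner of a tRNA methyltransferase and starts beside an upstream NDUFV3 transcript. Relative to the Ensembl canonical TSS of NDUFV3 they were at -13880 to -13784 bp, so they lie at the start of WDR4 and of an upstream NDUFV3 transcript, far from the canonical one.

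ATP5MC2, 1 of the genes for the rotating c-ring of complex V, was found in 1 WT library and 3 SLK-KO libraries. Its rank was 180 in WT replicate 1 and 892, 747 and 334 in SLK-KO replicates 1 to 3. The summits lay 71 to 133 bp downstream of its canonical TSS on chromosome 12, within 62 bp of each other.

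The longer SLK-KO lists alone held MYC at 12 members (10.8%, all coding genes 7.07%), and the WT lists alone at none (all coding genes 0.24%). Among genes with POL2 in at least 1 library, the SLK-KO lists alone held MYC at 13.0% of members and 13.0% of coding genes. Of the 12 members, NDUFAF2 and NDUFAF3 were listed in every SLK-KO replicate. This pattern of 3 SLK-KO and 0 WT libraries was met by 2 members (1.80%), against 0.874% of all coding genes. It was met by 9.04% of the 1935 coding genes with MYC in at least 1 library. Among genes with POL2 in at least 1 library, 2.17% of members and 1.62% of coding genes met it. NDUFAF2, a complex I assembly factor on chromosome 5 (60945177 to 61154531), ranked 1042, 641 and 923 in SLK-KO. Each of these ranks lay beyond the end of the longest WT list, at 365. NDUFAF3, a complex I assembly factor on chromosome 3 (49020459 to 49023495), ranked 657, 464 and 297, and the last of these alone was within 365. Both genes start beside a gene on the other strand. The NDUFAF2 summits lay 40 to 245 bp from its own nearest TSS, and its neighbour is the DNA repair gene ERCC8. The NDUFAF3 summits lay 35 to 159 bp from the TSS of DALRD3, a tRNA modification gene, which was nearer than any TSS of NDUFAF3.

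No member had MYC in 3 WT and 0 SLK-KO libraries (0.0% of all coding genes). In the exact two-sided permutation of library labels per gene, the smallest p was 0.1, the lowest that 3 against 3 libraries allow, and the smallest Benjamini-Hochberg adjusted p over the 1935 genes was 1. By this exact permutation test 0 genes had an unadjusted p under 0.05. The count of 2 became 5 without SLK-KO replicate 1, and 1 when each summit was given to its nearest gene only, which left NDUFAF2. It was 1 with a score of at least 5, which left NDUFAF3, and 0 with the best 201 summits of each list.

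Another 5 members had MYC in 2 SLK-KO libraries and no WT library. COX15, which makes haem A for complex IV, ranked 641 and 459 in SLK-KO replicates 2 and 3, with summits 17 and 20 bp from the TSS of its neighbour CUTC. COX18, which inserts a complex IV subunit into the membrane, ranked 1315 and 695 in the same replicates, 500 and 338 bp downstream of its own TSS. NDUFA7, an accessory subunit of complex I, ranked 1297 and 421 in these replicates too, 68 and 46 bp from the TSS of the ribosomal protein gene RPS28. The assembly factor NDUFAF6 ranked 1037 and 701 in SLK-KO replicates 1 and 2, at an alternative TSS, -129001 and -128841 bp from its canonical TSS. NDUFB2, an accessory subunit of complex I, ranked 1019 and 504 in SLK-KO replicates 1 and 3, within 5 bp of its nearest TSS. ATP5MC1, NDUFAF5, NDUFAF8, NDUFS5 and SDHD had MYC in 1 SLK-KO library each, at ranks from 436 to 1076.

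**Figure D2:**
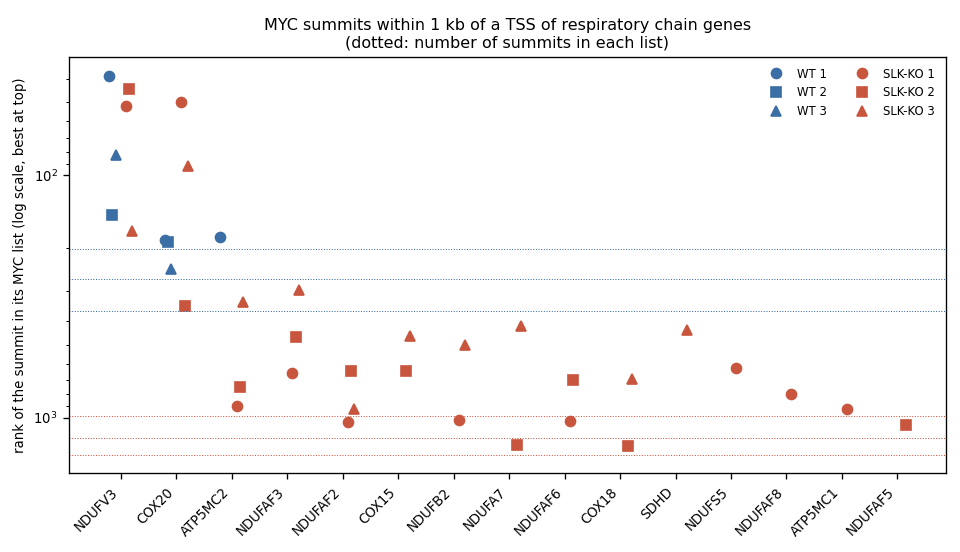
Rank of the best MYC summit within 1 kb of each of the 15 genes with at least 1 (log axis, 1 is the highest score), by library and genotype; dotted lines mark the list lengths. COX20 and NDUFV3 have a point for all 6 libraries, and NDUFAF2 has SLK-KO points only, all past the longest WT list of 365 summits.

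Of the 15 genes with MYC, 10 had their own TSS nearest to every summit. For the other 5 (COX15, NDUFA7, NDUFAF3, NDUFV3 and SDHD) another coding gene started nearer in every library. Counting each summit for its nearest coding gene only, the share difference between genotypes was 5.11 percentage points.

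The bases around CACGTG within 100 bp of a MYC summit show which of these positions held the E-box letters. CACGTG occurred at 6 of the genes, of which NDUFAF6 is not printed and 5 are shown here on the plus strand of GRCh38 with the E-box in capitals.
COX20 (chr1:244835825-244835854, intron): ctaggcccggagCACGTGtcactggcttct
NDUFA7 (chr19:8321478-8321507, upstream): ctctccccgaagCACGTGactcctctccgc
NDUFAF2 (chr5:60945307-60945336, coding exon): gaagtgaaggagCACGTGggcacggaccaa
NDUFB2 (chr7:140697301-140697330, intron): aatcggagacgtCACGTGgccgctttttaa
SDHD (chr11:112086291-112086320, upstream): cttttctacgggCACGTGgcctgcaaggag
CACGTG reads the same on both strands, so a match counts once. Each label gives the position relative to the named member alone. The NDUFA7 summits lay in a coding exon of RPS28 and the SDHD summit in an intron of TIMM8B, the genes with the nearer TSS.

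These E-boxes were within reach of summits in few libraries: 2 SLK-KO libraries for NDUFA7, and 1 library for each of the others, WT replicate 1 for COX20 and an SLK-KO library for NDUFAF2, NDUFAF6, NDUFB2 and SDHD. From summit to E-box the distance was 3 bp for COX20, 17 bp for SDHD, 24 bp for NDUFAF2, 47 and 71 bp for NDUFA7, 86 bp for NDUFAF6 and 93 bp for NDUFB2. Among all MYC summits within 1 kb of a member TSS, 1 of 3, 0 of 2 and 0 of 2 had CACGTG within 100 bp in WT, and 2 of 12, 2 of 11 and 2 of 12 in SLK-KO. MYC summits near any coding TSS had it in 39.6, 44.3 and 45.3% of cases in WT and in 31.2, 30.2 and 31.1% in SLK-KO. The mean share at the members was 6.06 percentage points higher in SLK-KO, and the difference reversed to -2.78 points when the window was 50 bp. Leaving out WT replicate 1 raised the difference to 17.2 points, and leaving out WT replicate 2 or 3 brought it to 0.505. With so few summits no direction can be read from it.

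POL2 marked most respiratory chain genes. In at least 1 of 6 libraries, 92 of 111 genes (82.9%) had a POL2 summit, against 53.7% of all coding genes. In all 6 libraries 32 (28.8%) had one, against 18.0%. Among genes with POL2 in at least 1 library, 34.8% of members and 33.6% of coding genes had it in all 6. In WT, 88, 34 and 70 genes had a summit (79.3, 30.6 and 63.1%), where all coding genes gave 47.3, 19.1 and 35.3%. In SLK-KO, 90, 82 and 85 genes had one (81.1, 73.9 and 76.6%), where all coding genes gave 49.0, 45.1 and 47.2%. The mean was 57.7% ± 24.8 (SD, n = 3) in WT and 77.2% ± 3.64 (SD, n = 3) in SLK-KO, a difference of 19.5 percentage points, with WT replicate 1 inside the SLK-KO range. The difference is smaller than the WT SD. Without WT replicate 2 it was 6.01 points, and without WT replicate 1 it was 30.3. With each list reduced to its best 5047 summits, the members gave 47.7, 30.6 and 38.7% in WT and 45.9, 45.9 and 46.8% in SLK-KO, and the difference in means was 7.21 points. All coding genes at that length gave 24.7, 19.1 and 23.7% in WT and 24.3, 24.1 and 24.4% in SLK-KO.

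**Figure D3:**
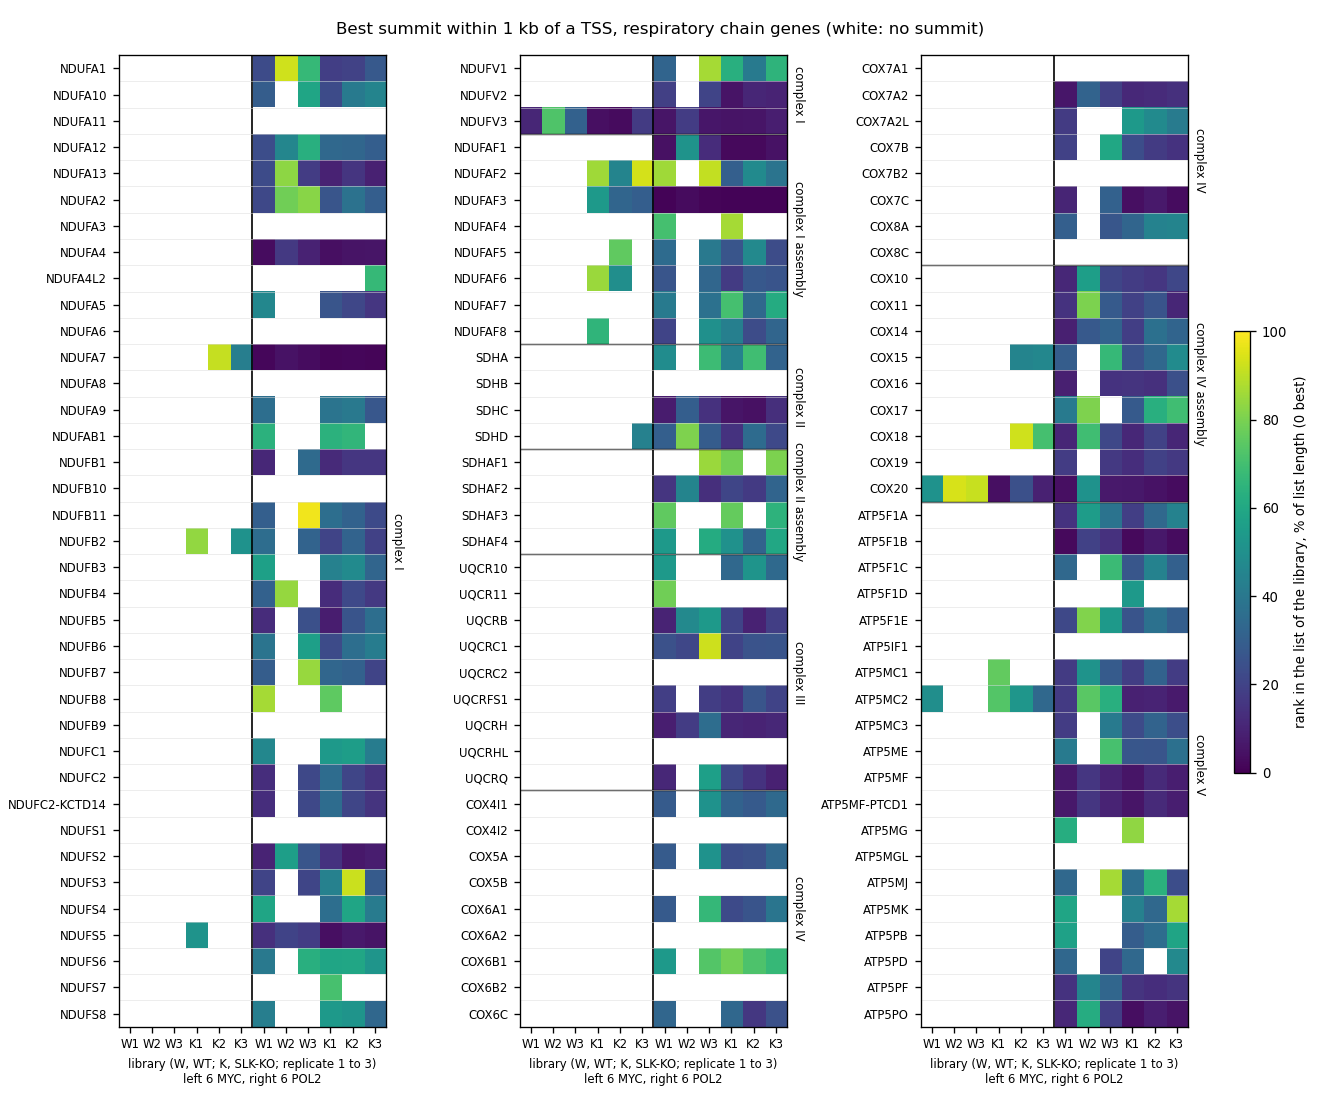
Each of the 111 genes (rows, grouped by complex) in each of the 12 libraries (columns), coloured by the rank of the best summit within 1 kb of a TSS as a percent of list length (0 is the best score) and white where there was none. POL2 columns are filled for most genes, least in WT replicate 2 with 34 genes, and MYC columns hold 2 or 3 genes in WT and 10 in SLK-KO.

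All assembly factors had POL2 in at least 1 library, 8 of 8 for complex I, 4 of 4 for complex II and 9 of 9 for complex IV. In all 6 libraries these counts were 2 of 8, 1 of 4 and 5 of 9. In the subunit groups, set by symbol, POL2 was at 33 of 40 of complex I in at least 1 library. It was at 3 of 4 of complex II, 7 of 9 of complex III, 10 of 17 of complex IV and 18 of 20 of complex V. Complex IV was the lowest, with 1 of its 17 subunit genes in WT replicate 2 and 10 in each SLK-KO library. Of its 7 genes without POL2, 6 are isoform genes that are known to be restricted to muscle, testis, lung or other tissues, a grouping made after the values were seen. COX4I2, COX6A2, COX6B2, COX7A1, COX7B2 and COX8C had POL2 in 0 of 6 libraries. Their widely expressed counterparts COX4I1, COX6A1, COX6B1, COX7B and COX8A had it in 5 of 6, and COX7A2 in 6 of 6. In complex I, NDUFA4L2 had POL2 in 1 library and NDUFA4, whose product is found in complex IV, in 6.

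The 19 genes with no POL2 summit (17.1%, against 46.3% of all coding genes) held other kinds of gene as well. UQCRHL and ATP5MGL are copies similar in sequence to UQCRH and ATP5MG. Whether reads were split between such copies was not tested, and their start regions were not compared. The other 11 encode widely expressed parts of the chain. They were NDUFA3, NDUFA6, NDUFA8, NDUFA11, NDUFB9, NDUFB10 and NDUFS1 of complex I, the iron-sulphur subunit SDHB of complex II, the core protein UQCRC2 of complex III, COX5B of complex IV and the complex V inhibitor ATP5IF1. Around many of them the POL2 lists were empty over long stretches. For NDUFS1, which carries iron-sulphur clusters of complex I, the nearest POL2 summit of any library was 447486 bp from a TSS. The distance was 440968 bp for COX5B, 433114 bp for UQCRC2, 140369 bp for NDUFA6, 133584 bp for ATP5IF1 and 126435 bp for SDHB. It was 111327 bp for NDUFA3 and 104987 bp for NDUFA8, while it was 67766 bp for NDUFB10, 19093 bp for NDUFB9 and 4325 bp for NDUFA11. Of the restricted isoforms, COX7B2 (576085 bp) and COX8C (552724 bp) also lay over 100 kb away, and the other 4 lay 11760 to 18704 bp away. The remaining distances were 6785 bp for UQCRHL and 8540 bp for ATP5MGL. In all, 10 of 111 members (9.01%) had no POL2 summit within 100 kb, against 18.7% of all coding genes. Why these stretches are empty was not tested, and the genes are not read as unoccupied.

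The best POL2 ranks belonged to NDUFAF3, with 160, 145 and 123 in WT and 218, 158 and 141 in SLK-KO. Its 6 summits lay within 5 bp of each other on chromosome 3, from 49021473 to 49021478. NDUFA7 ranked 333, 238 and 331 in WT and 278, 270 and 232 in SLK-KO, with summits on the side of RPS28. COX20 ranked 679, 2580 and 680 in WT and 1236, 761 and 544 in SLK-KO. These 3 genes also had MYC, and the first 2 of them share their start region with another coding gene. ATP5F1B, which encodes the catalytic beta subunit of complex V on chromosome 12 (56638175 to 56645984), ranked 459, 967 and 1400 in WT and 504, 986 and 527 in SLK-KO. The complex I assembly factor NDUFAF1, on chromosome 15 (41387218 to 41409403) beside the elongation factor gene RTF1, ranked 760, 2591 and 1253 in WT and 465, 387 and 784 in SLK-KO. COX20 and NDUFAF1 were each lowest in WT replicate 2, the shortest list. Over all members with a summit, the median rank lay at 23.1 to 49.1% of the list length by library, and over all coding genes at 26.7 to 39.7%.

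No member had POL2 in 3 SLK-KO and 0 WT libraries, against 1.54% of all coding genes, and none in 3 WT and 0 SLK-KO libraries, against 0.00998%. More SLK-KO than WT libraries had a summit for 55 members (49.5%, all coding genes 30.5%). More WT than SLK-KO libraries had one for 1, UQCR11 (all coding genes 2.39%). Among genes with POL2 in at least 1 library, more SLK-KO than WT libraries had it for 59.8% of members and 56.8% of coding genes. The largest class, 38 genes, had POL2 in 2 WT and 3 SLK-KO libraries. Another 11 (all coding genes with 3 SLK-KO and at most 1 WT library 8.56%) had it in 3 SLK-KO libraries and, of WT, in replicate 1 alone: ATP5MK, ATP5PB, COX6C, COX7A2L, NDUFA5, NDUFA9, NDUFB3, NDUFC1, NDUFS4, NDUFS8 and UQCR10. The count in 3 SLK-KO and 0 WT libraries therefore rose to 11 without WT replicate 1, and 1 library decides it. In the exact two-sided permutation test over 10765 genes the smallest p was 0.1 and the smallest adjusted p was 1, and 0 genes had an unadjusted p under 0.05.

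POL2 summits sat just inside the start of the members. By library, the median position was 26 to 40 bp downstream of the canonical TSS, where all coding genes gave 32 to 37 bp. The best-ranked summit lay within 250 bp of the canonical TSS for 81.1 to 88.6% of members with one, against 69.3 to 71.9% of all coding genes with one. For the 32 members with POL2 in all libraries, the 6 summits spanned a median of 95.5 bp, and 24 spanned at most 250 bp. Genotypes overlapped in these positions.

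**Figure D4:**
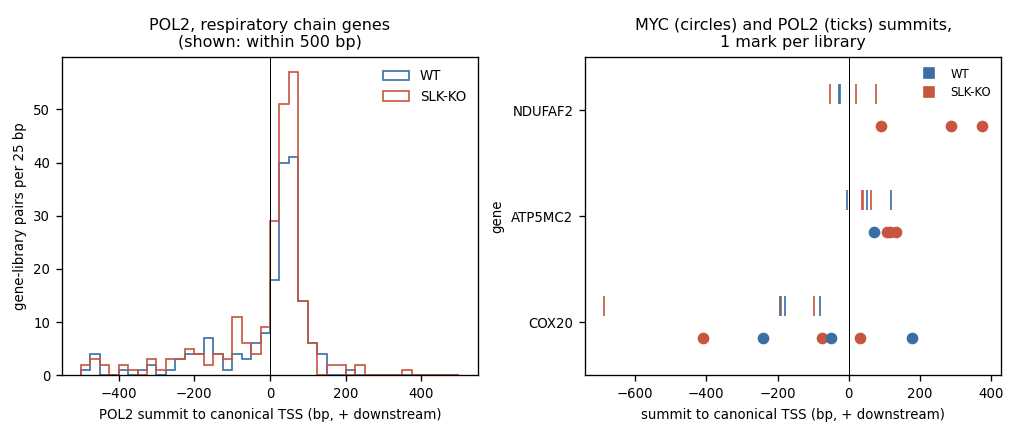
Left, number of gene and library pairs per 25 bp of distance between the best-ranked POL2 summit and the canonical TSS, by genotype, for summits within 500 bp. Right, MYC (circles) and POL2 (ticks) summits of COX20, ATP5MC2 and NDUFAF2 in each library. On the left both genotypes are highest just downstream of the TSS; on the right the 6 COX20 POL2 summits lie upstream of it, at -687 to -81 bp, and the COX20 MYC summits scatter over 586 bp.

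All 15 members with MYC had a POL2 summit in at least 1 library, and 9 of them (60%) in all 6. Over all coding genes with MYC the shares were 98.4% and 54.4%. Of the 96 members without MYC, 77 (80.2%) had POL2 and 23 (24.0%) had it in all 6, against 49.0% and 14.2% of all coding genes without MYC. In the POL2 library of the same number, a summit lay within 250 bp of the best MYC summit for 2 of 3, 2 of 2 and 2 of 2 genes in WT and for 6 of 10, 7 of 10 and 6 of 10 in SLK-KO. The difference in mean share, SLK-KO minus WT, was -25.6 percentage points. It was -13.3 with POL2 within 500 bp, -38.9 with the best 5047 POL2 summits, and 0 within 1 kb, where the share was 100% in both genotypes. These counts rest on 2 or 3 genes per WT library.

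Respiratory chain genes often shared their start region. Another coding gene had a TSS within 1 kb for 53 members (47.7%), against 23.3% of all coding genes and 32.9% of those with POL2. For 46 members (41.4%) that gene lay on the opposite strand, against 17.7 and 26.6%. In 17.6 to 25.9% of members with POL2 in a library, the summit was nearest to the TSS of another gene.

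The promoters were searched on both strands from 250 bp upstream to 50 bp downstream of the canonical TSS for letters that resemble binding motifs. The NRF1 palindrome, spelled in capitals in the sequences that follow and named for a nuclear regulator of respiratory genes, was in 7 members (6.31%), against 2.51% of coding genes with POL2 and 1.69% of all. The ones below were read from GRCh38 on the gene's strand, with the motif in capitals, for a gene each of complexes I, II and V and of complex IV assembly.
NDUFB4 (chr3:120596167-120596196, plus strand): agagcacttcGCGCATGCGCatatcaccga
SDHD (chr11:112086753-112086782, plus strand): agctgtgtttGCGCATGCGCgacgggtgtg
ATP5F1C (chr10:7788145-7788174, plus strand): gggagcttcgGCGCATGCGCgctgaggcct
COX18 (chr4:73069744-73069773, minus strand): gcaggcaggcGCGCATGCGCtttatgcccg
The other 3 genes with these letters were COX17, NDUFA8 and NDUFAF5. Of the 7, COX18, NDUFAF5 and SDHD had a MYC summit in SLK-KO. MYC in at least 1 SLK-KO library was found for 13.5% of all members and 9.42% of all coding genes. None of the best-ranked MYC summits of these 3 genes had the NRF1 letters within 100 bp, and a link was not tested.

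The YY1 letters AAGATGGC were in 15.3% of members, against 6.27% of coding genes with POL2 and 4.04% of all, and 15 of their 17 matches began from 20 bp upstream of the TSS onward, where 573 of 840 did over all coding genes. The ETS letters CCGGAAG were in 27.9%, against 21.0 and 14.1%. CACGTG was in 9.01% of member promoters, against 9.94 and 8.76%. GGGCGG was in 61.3%, against 74.5 and 61.3%, and CCAAT in 31.5%, against 37.2 and 36.1%. At least 1 of the ETS, NRF1 and YY1 strings was present in 48 members (43.2%), against 18.5% of all coding genes. ETS and YY1 letters met in 5 member promoters and overlapped in 0, where all coding genes gave 180 and 6. A match describes the letters and is not shown to be a bound site.

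**Figure D5:**
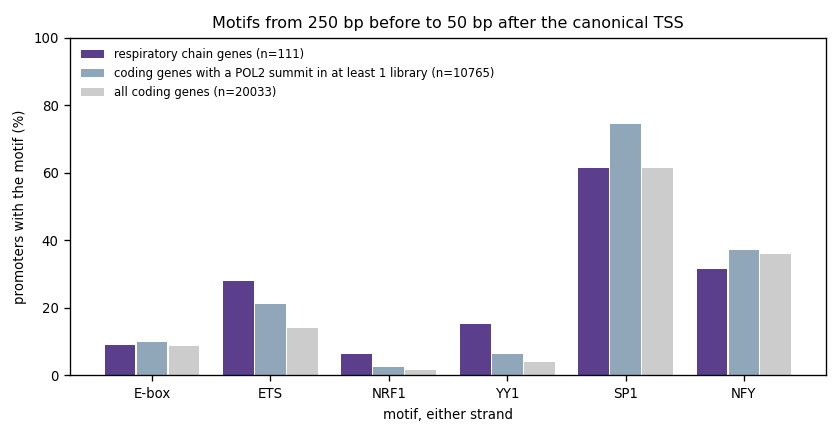
Percent of promoters (250 bp upstream to 50 bp downstream of the canonical TSS) with each motif string on either strand, in the respiratory chain genes, coding genes with POL2 and all coding genes. YY1 letters were in 15.3% of the respiratory chain genes and 4.04% of all coding genes, while CACGTG was in 9.01 and 8.76%.

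Other genes of the pathway that the symbol rule does not take (cytochrome c, further assembly factors and coenzyme Q synthesis, 56 genes) had MYC in at least 1 library in 13 cases, 4 of them in a WT library, and POL2 in 52, where the shares of all coding genes were 9.66, 2.59 and 53.7%. Their mean MYC share in the 3 WT libraries was 2.98% ± 1.03 (SD, n = 3), and in the 3 SLK-KO libraries 14.9% ± 5.46 (SD, n = 3). The 4 genes in a WT library were COA4, HIGD2A, PET117 and UQCC6. COA7, a complex IV assembly factor, was the gene of this list with MYC in 3 SLK-KO and 0 WT libraries, at ranks 1042, 436 and 330. The 78 mitochondrial ribosomal protein genes had a MYC share of 3.42% ± 1.96 (SD, n = 3) in WT libraries, and of 14.1% ± 2.22 (SD, n = 3) after the knockout. All coding genes gave 1.42 and 5.51%. The differences between these lists and the respiratory chain genes were not tested.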

How the data were processed

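The 12 MYC and POL2 summit lists were analysed. IgG and Input samples were not analysed here. Per the labels, paired-end reads of 50 bp were processed with nf-core/chipseq 2.1.0 against GRCh38.p14. The submitters' processing notes name BWA 0.7.18-r1243 and MACS3 3.0.1. The control library and the caller's options are not given in the sources used here. The deposited score of each 1-bp summit was read as −log10 of a q-value, since the lowest score of every list lay above 1.30103, which is −log10 of 0.05. Scores rank summits within a list only.

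Coding genes and every transcript TSS came from GENCODE release 44, and sequence from the GRCh38 FASTA. The 323 summits on sequences other than chromosomes could be assigned to no gene, since only genes on chromosomes were taken. A gene was present when a summit lay within 1 kb of a TSS, and its best-scored summit gave rank and distance. Presence was compared by exact permutation of library labels (20 relabellings), adjusted by Benjamini-Hochberg over all coding genes with a summit. In simulated lists, genes with no other coding TSS nearby were set to differ, with summits placed inside the window. The scripts recovered 100% of them. This checks the counting rule alone and leaves out genes that share a start region. Python 3.11.15, numpy 2.4.6, pandas 2.3.3 and scipy 1.17.1 were used.

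The members and lists were chosen with earlier results of these data known. Some further marker genes are not reported here. Values per library are given for members with MYC in at least 1 WT or 2 SLK-KO libraries, for those in 3 libraries of 1 genotype and 0 of the other, for the 5 best median POL2 ranks, and for those without POL2. Windows, score minimum, equal list lengths, gene assignment and left-out replicates were varied. The labels call the libraries biological replicates. Same-numbered WT and SLK-KO libraries were checked for pairing. Their deviations correlated at -0.0193 to 0.0520 for MYC and -0.0157 to 0.0525 for POL2. Differently numbered libraries gave -0.0575 to 0.0320 for MYC and -0.0775 to 0.0887 for POL2. No pairing by number was seen, but this check cannot show whether same-numbered libraries were prepared together.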

Additional observations from a re-analysis of the deposited data

How the results depend on the processing

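The MYC share difference (6.91 percentage points) was 6.31 with a 500 bp window, 5.71 with the 5′ end of the gene record alone, 4.50 with a score of at least 5, 5.11 with the nearest gene alone and -0.300 with the best 201 summits, and 6.76 to 7.21 on leaving out single libraries. The count of members with MYC in 3 SLK-KO and 0 WT libraries (2) was 1 with a score of at least 5, 1 with the nearest gene alone, 0 with the best 201 summits and 2 to 5 with a library left out. For POL2 the share difference (19.5) was 7.21 with the best 5047 summits and 6.01 to 30.3 with a library left out. The POL2 count (0) was 1 with a score of at least 5 (NDUFAF2), 1 with the best 5047 summits (NDUFA5) and 0 to 11 with a library left out. The E-box difference (6.06) was -2.78 within 50 bp, -11.1 with the best 201 summits and 0.505 to 17.2 with a library left out. The share of genes with MYC that had POL2 nearby (-25.6) was -13.3 with POL2 within 500 bp, 0 within 1 kb, where both genotypes reached 100%, -38.9 with the best 5047 POL2 summits and -35 to -18.3 without 1 replicate number. With the replicate block the values were 6.91, 19.5, 2 and 0, which pairing by number cannot change by construction. The smallest p in the exact sign flips was 0.25, the lowest that 3 pairs allow. Of the 97 alternatives 82 gave values within the spread between replicates or within 1.5 times the count, 12 moved further and 3 changed sign. The 82 include the replicate block, which could not move. They also include every alternative for the counts in 3 WT and 0 SLK-KO libraries, which stayed at 0. For the POL2 share the spread used was the WT SD of 24.8, larger than the difference of 19.5. Falls to 6.01 and 7.21 therefore counted as within it, and the 82 do not measure how stable the results are. The cause of these moves was not tested, except that equal list lengths and higher score minimums keep fewer summits by construction. Unknown read depth limits every absence.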

Other observations

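Nuclear regulators of mitochondrial genes, a list of 12, had MYC summits in at least 1 library in 7 cases, where the share of all coding genes was 9.66%. GABPB1, which encodes a subunit of the ETS-family factor known as NRF2, had MYC at rank 85 in WT replicate 3 and at ranks 26, 24 and 36 in the 3 SLK-KO libraries, 5 to 83 bp upstream of its nearest TSS. PPRC1, a coactivator related to PGC-1, ranked 214 in WT replicate 3 and 143, 125 and 504 in SLK-KO. PPARGC1B, another coactivator of that family, ranked 191 in WT replicate 1 and 549 and 894 in SLK-KO replicates 1 and 2. NRF1, TFAM, TFB2M and ESRRA had MYC in 1 SLK-KO library each. The mean share of the list was 8.33% ± 8.33 (SD, n = 3) over WT libraries and 33.3% ± 8.33 (SD, n = 3) over SLK-KO ones, against 1.42 and 5.51% of all coding genes, with list length and genotype not told apart. POL2 was listed in at least 1 library at 11 of the 12, against 53.7% of all coding genes, and PPARGC1A had none.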
